A study of Homo sapiens with 6 samples.

Results

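The oestrogen receptor (ER) does not act on its genes alone, and the genes described here encode the proteins that it recruits. They are 9 coregulators: the steroid receptor coactivators NCOA1, NCOA2 and NCOA3, the acetyltransferases EP300 and CREBBP, the arginine methyltransferase CARM1, the Mediator subunit MED1, and the repressors NRIP1 and NCOR1. They were chosen by name from what is known of ER, with earlier results of these data known. All 9 of 9 were found by Ensembl identifier among the 60656 genes of the count table. The libraries came from parental ZR-75-1 cells, an established ER-positive luminal breast cancer line, with no gene edited in either group. They were grown in RPMI-1640 with 10% fetal bovine serum and kept for 4 days with either DMSO, the solvent, or 500 nM abemaciclib, an inhibitor of the cyclin D-dependent kinases. Each group had 3 libraries. The data are thus from 1 cell line, and the RB1 knockout cells of the study were not analysed here.

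Oestrogen-bound ER exposes a groove that is filled by short leucine-rich motifs of the steroid receptor coactivators. These in turn bring in EP300, CREBBP and CARM1, which modify histones, while MED1 links the receptor to the Mediator complex and so to RNA polymerase II. NRIP1 uses the same kind of motif to occupy the receptor but brings in histone deacetylases and CtBP proteins, and it is itself a well-known oestrogen-induced gene. NCOR1 is the scaffold of a deacetylase complex with HDAC3 that is best known for ER bound to anti-oestrogens.

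The 3′ mRNA libraries held 3317860 to 4013156 counts each. Levels are given as CPM (the count relative to the library's TMM-scaled total), with no correction for transcript length, since reads come from the 3′ end. The study describes no removal of copied reads for RNA, so a read need not be 1 transcript, and levels compare across genes only roughly. A count of 0 allows up to 3 counts, or 0.748 to 0.904 CPM of the library's unscaled total, with counting error alone considered. The proliferation gene MKI67 stood at 525.8 ± 31.4 CPM in DMSO and at 5.00 ± 2.28 CPM in abemaciclib (SD, n = 3 libraries each), a log2 fold change of −6.71 that passed the edgeR test (adjusted P under 0.05). All 8 of 8 luminal markers were detected, with a summed level of 7478 to 7935 CPM with DMSO and 8520 to 9512 CPM with abemaciclib. The markers in this sum did not move together. KRT19 had 2957 to 3400 CPM with DMSO and 3905 to 4604 CPM with abemaciclib. KRT18 went the other way, from 657.6 to 727.4 CPM with DMSO to 509.8 to 573.9 CPM with abemaciclib. Of 5 basal markers, KRT5, KRT14 and TP63 were at 0 in every library, and the summed level was 7.54 to 14.8 CPM with DMSO and 0.493 to 1.82 CPM with abemaciclib. Most of that sum was ACTA2, at 6.09 to 13.3 CPM with DMSO and 0.493 to 1.82 CPM with abemaciclib. Of 5 fibroblast markers, COL1A2 and COL3A1 were at 0 and the sum was 10.4 to 15.8 CPM with DMSO and 10.4 to 15.7 CPM with abemaciclib. Of 5 immune and 4 endothelial markers, 1 of each was detected, at no more than 1.51 CPM in sum, with PTPRC and PECAM1 at 0. In bulk RNA, fewer cells with a transcript and less transcript per cell cannot be told apart.

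Of the 9 coregulators, all of which had enough counts to be tested, 1 rose with abemaciclib and 0 fell. The gene that rose was NRIP1. Abemaciclib was compared with DMSO in edgeR (quasi-likelihood F-test), P values were adjusted by Benjamini–Hochberg over the 10863 genes tested, and an adjusted P under 0.05 was called. Over all these genes 25.7% were called, 12.5% higher and 13.3% lower, against 11.1% of the 9 coregulators. At an unadjusted P under 0.05 there were 2 higher and 0 lower, and DESeq2 also called 1 higher and 0 lower. The median log2 fold change of the 9 was 0.06, beside −0.00178 over all genes tested.

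**Figure D1:**
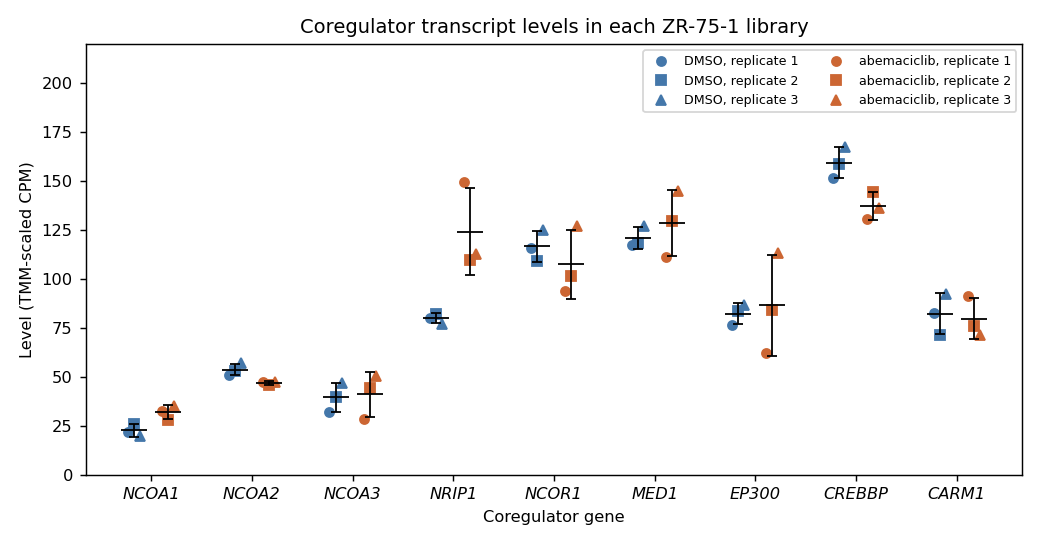
Level of each coregulator in every library, in TMM-scaled CPM on a linear axis from 0, with DMSO in blue, abemaciclib in orange and a marker shape for each replicate; the horizontal line is the mean and the bars are the SD of 3 libraries. The abemaciclib libraries of NRIP1 lie between 109.5 and 149.8 CPM, above all its DMSO libraries, whereas the points of NCOA3, NCOR1, MED1, EP300 and CARM1 overlap between groups.

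NRIP1 (ENSG00000180530) lies on the minus strand at chr21:14961235-15065936 of GRCh38. The region before its outermost annotated start is shown because NRIP1 was the coregulator that changed, and that before NCOA1 because it had the next-largest fold change. Each run is the 250 bases before the gene's RefSeq start, on the strand of the gene, at chr21:15065937-15066186 for NRIP1 and chr2:24491004-24491253 for NCOA1 (GRCh38.p14). Capitals mark GGGCGG, the box read by SP1, on either strand, with neighbouring matches allowed to overlap.

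NRIP1: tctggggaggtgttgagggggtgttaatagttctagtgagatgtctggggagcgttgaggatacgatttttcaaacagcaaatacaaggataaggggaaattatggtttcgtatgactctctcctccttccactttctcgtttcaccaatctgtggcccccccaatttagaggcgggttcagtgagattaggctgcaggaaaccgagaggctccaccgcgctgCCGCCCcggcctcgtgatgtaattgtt
NCOA1: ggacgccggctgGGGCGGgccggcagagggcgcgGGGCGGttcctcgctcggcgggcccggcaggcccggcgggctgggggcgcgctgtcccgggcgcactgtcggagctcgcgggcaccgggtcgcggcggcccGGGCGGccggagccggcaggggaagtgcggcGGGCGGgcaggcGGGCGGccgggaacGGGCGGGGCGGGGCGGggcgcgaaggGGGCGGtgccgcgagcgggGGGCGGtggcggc

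The window of NRIP1 held 1 such box and that of NCOA1 held 10, and 44.6% of the 27305 windows of 300 bases in the same table held at least 1. The 300-base window was 50.7% G and C for NRIP1 and 85.7% for NCOA1, with a median of 58.3% over all windows. Neither held the repeat unit of the oestrogen response element, GGTCA, on either strand, which 37.7% of all windows held, nor an E2F box (TTTCCCGC, TTTGGCGC or TTTCGCGC), which 2.79% held. Among the 8 coregulators with a window, GGTCA was found for MED1 alone, and the full palindromic element, held by 0.0659% of all windows, for none. A match is only a stretch of letters, the libraries do not show which start a gene used, and distal elements were not searched.

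NRIP1 stood at 80.1, 82.3 and 77.2 CPM in the DMSO libraries and at 149.8, 109.5 and 112.9 CPM in the abemaciclib libraries. The groups did not overlap, and abemaciclib replicate 1 was the highest. This was a rise of 0.63 on the log2 scale (edgeR, standard error 0.13, adjusted P = 0.000438), or 1.55-fold with a 95% interval of 1.29 to 1.86. DESeq2 gave a log2 fold change of 0.64 (adjusted P = 0.000386). Without abemaciclib replicate 1 the log2 fold change was 0.48 (edgeR, adjusted P = 0.00747), and across the 12 alternatives the adjusted P was between 5.65e-06 and 0.00747. In raw counts the gene had 255 to 277 with DMSO and 418 to 495 with abemaciclib. Its last 1000 bases overlap exons of 1 annotated lncRNA on the opposite strand, which had 0 counts in all libraries. Another lncRNA, on the same strand, spans that stretch without an exon in it and had 33 counts over all libraries. The strand setting of the counting is not given, so these counts cannot show whether the overlap affected those of NRIP1.

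NCOR1, the other repressor of the 9, did not pass the threshold. It had 115.7, 109.3 and 124.8 CPM with DMSO and 93.8, 101.4 and 127.3 CPM with abemaciclib, so the groups overlapped. On the log2 scale the difference was −0.12 with a 95% interval of −0.37 to 0.14 (edgeR, adjusted P = 0.546). NCOR1 (ENSG00000141027, chr17:16029065-16218185, minus strand) meets exons of TTC19 on the opposite strand in its last 1000 bases, and the strand setting of the counting is not given in the sources used here, so its counts are uncertain. Its 4 annotated pseudogenes had 0 counts.

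The 3 steroid receptor coactivators, which are paralogues, gave no call. NCOA1 (ENSG00000084676, chr2:24491254-24770702, plus strand), the founding member of the family, had the largest fold change among them. It stood at 22.0, 26.1 and 19.7 CPM with DMSO and at 32.7, 28.1 and 35.1 CPM with abemaciclib. The lowest abemaciclib library lay above the highest DMSO library, by a gap that was small beside the spread within each group. In the edgeR fit its log2 fold change came to 0.50 (standard error 0.20, 95% interval 0.09 to 0.90), an unadjusted P of 0.0178 and an adjusted P of 0.0637. DESeq2 gave an adjusted P of 0.143, and across the 12 alternatives the adjusted P lay between 0.0591 and 0.195, so no setting brought NCOA1 past the threshold.

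NCOA2 (ENSG00000140396, chr8:70109782-70403808, minus strand) was the most abundant of the family with DMSO, at 51.0, 53.2 and 56.9 CPM. With abemaciclib it stood at 47.5, 45.9 and 47.3 CPM, below each DMSO library and close together. Its log2 fold change was −0.20 (95% interval −0.50 to 0.10, edgeR, adjusted P = 0.363). NCOA3 (ENSG00000124151, chr20:47501887-47656877, plus strand), the member amplified in some breast cancers, was the most variable of the 3. It had 32.2, 39.8 and 46.9 CPM with DMSO and 28.4, 44.4 and 50.3 CPM with abemaciclib, and the groups overlapped. Its log2 fold change was 0.06 with a 95% interval of −0.34 to 0.45 (edgeR, adjusted P = 0.869), so a change of up to 1.37-fold upwards or to 0.791 of the DMSO level lies within its interval. The 3′ end of NCOA3 overlaps SULF2 on the opposite strand, which had 17 counts over all 6 libraries.

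The make-up of the family was read from counts within a library, which no scaling between libraries can move. NCOA1 made up 19.6% ± 3.2 (SD, n = 3) of the counts of the 3 genes with DMSO and 26.8% ± 3.2 (SD, n = 3) with abemaciclib. The share of NCOA2 was 46.4% ± 1.9 and then 39.4% ± 4.1, and that of NCOA3 was 34.0% ± 3.7 and then 33.9% ± 6.6 (SD, n = 3 in each group). In single libraries the share of NCOA1 ran from 15.9% (exact binomial 95% interval 12.5 to 19.9) in DMSO replicate 3 to 30.1% (25.4 to 35.1) in abemaciclib replicate 1. Such intervals cover counting error only, so they do not compare the groups. Over genes above a minimum count in the pair, replicates of a group differed by more than counting error. The chi-square per degree of freedom (a ratio of variances) was 2.84 to 7.29. The log2 ratio of NCOA1 to NCOA2 was −1.21, −1.02 and −1.53 with DMSO and −0.54, −0.71 and −0.43 with abemaciclib. NCOA1 was thus the less abundant of the pair in each library, and less so in each library with the drug. The mean ratio was 0.70 higher on the log2 scale with abemaciclib, with P = 0.1 from an exact permutation test, two-sided, the smallest that 3 libraries against 3 allow, and an adjusted P of 0.4 over 4 ratios. The ratio of NCOA3 to NCOA1 differed by −0.48 (exact permutation test, P = 0.4) and that of NCOA3 to NCOA2 by 0.22 (P = 0.5), and in both the groups overlapped. Summed over the 3 genes, the level was 116.0 ± 9.5 CPM with DMSO and 119.9 ± 12.1 CPM with abemaciclib (SD, n = 3 in each group), a difference smaller than either SD.

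**Figure D2:**
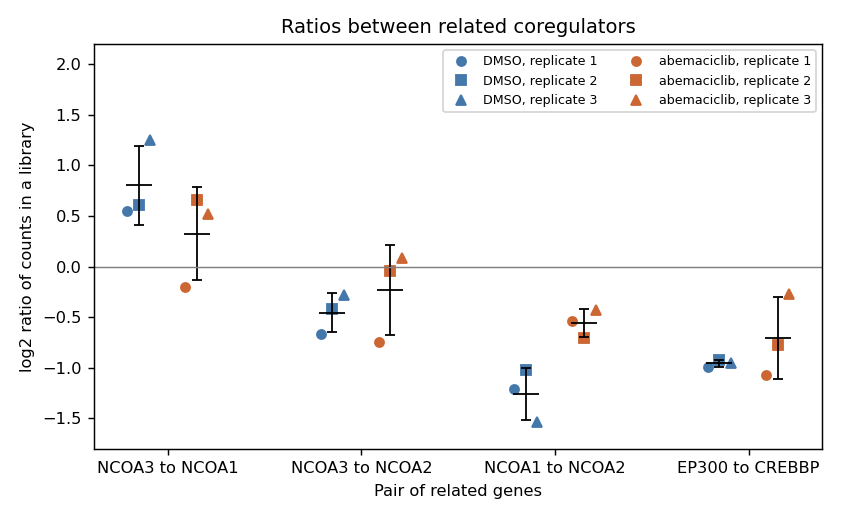
The log2 ratio of raw counts of related coregulators within each library, for 4 pairs, with DMSO in blue and abemaciclib in orange; the horizontal line is the mean and the bars are the SD of 3 libraries. The groups separate for NCOA1 to NCOA2, from −1.53 to −1.02 with DMSO and from −0.71 to −0.43 with abemaciclib, and they overlap for the other pairs.

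EP300 and CREBBP are close paralogues that acetylate histone H3 at enhancers. By mean level, EP300 had rank 4 of the 9 with DMSO and rank 5 with abemaciclib. CREBBP (ENSG00000005339, chr16:3725054-3880713, minus strand) had the highest level of the 9 in DMSO, at 151.7, 158.9 and 167.5 CPM. With abemaciclib it stood at 130.4, 144.6 and 136.5 CPM, below each DMSO library. Its log2 fold change came to −0.22 (standard error 0.11, 95% interval −0.43 to 0.00), and it did not pass the threshold (edgeR, unadjusted P = 0.0526, adjusted P = 0.143). The interval leaves room for a level as low as 0.740 of that with DMSO.

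EP300 (ENSG00000100393, chr22:41092592-41180077, plus strand) had 76.3, 83.8 and 86.6 CPM with DMSO and 62.0, 84.4 and 113.2 CPM with abemaciclib. The abemaciclib libraries lay on both sides of the DMSO range, and their SD was 25.7 CPM against 5.34 CPM with DMSO. Over the groups, the log2 fold change was 0.08 (95% interval −0.24 to 0.39, edgeR, adjusted P = 0.769), and it was −0.16 without abemaciclib replicate 3 and 0.27 without abemaciclib replicate 1. As a share of the counts of both genes, EP300 took 33.5%, 34.5% and 34.1% in the DMSO libraries. In abemaciclib replicates 1, 2 and 3 it took 32.2%, 36.9% and 45.3% (in replicate 3 an exact binomial 95% interval of 42.1 to 48.6, for counting error only). The log2 ratio of EP300 to CREBBP differed by 0.25 between the groups (exact permutation test, two-sided, P = 0.4, adjusted P = 0.5).

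CARM1 (ENSG00000142453, chr19:10871553-10923075, plus strand), which methylates arginines of histone H3 and of the coactivators themselves, had 82.7, 71.6 and 92.4 CPM with DMSO and 91.4, 76.2 and 71.6 CPM with abemaciclib. Its log2 fold change was −0.05 with a 95% interval of −0.32 to 0.23 (edgeR, adjusted P = 0.846). Its 3′ end overlaps exons of YIPF2 on the opposite strand, which leaves its counts uncertain. MED1 (ENSG00000125686, chr17:39404285-39451272, minus strand) had 117.5, 118.2 and 127.2 CPM with DMSO and 111.3, 129.8 and 144.8 CPM with abemaciclib. In each of these genes the groups overlapped. The log2 fold change of MED1 was 0.09, and its 95% interval of −0.15 to 0.33 was the second narrowest of the 9.

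**Figure D3:**
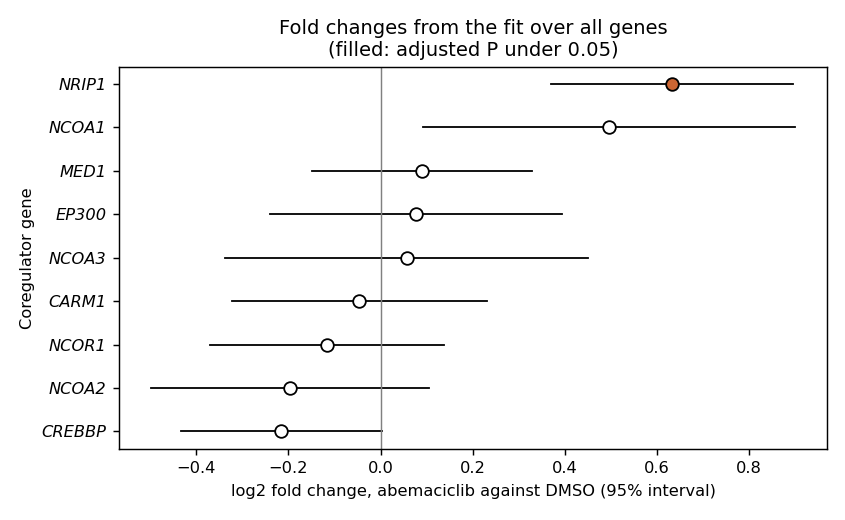
The log2 fold change of each coregulator with abemaciclib against DMSO, from the fit over all genes, with its 95% interval; a filled point marks an adjusted P under 0.05. The interval of NRIP1 runs from 0.37 to 0.90 and that of NCOA1 from 0.09 to 0.90, while those of the other 7 include 0.

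Set beside all genes tested, the 9 were well expressed, from the 52.6th percentile of mean level for NCOA1 to the 89.4th for CREBBP. Their biological coefficient of variation between libraries was 8.77% for CREBBP to 14.7% for NCOA3, around the 13.2% common to all genes. With DMSO the order of levels was CREBBP, MED1, NCOR1, EP300, CARM1, NRIP1, NCOA2, NCOA3 and NCOA1, and neighbours overlapped between MED1 and NCOR1 and among EP300, CARM1 and NRIP1. With abemaciclib NRIP1 moved from the sixth place to the third, and each neighbour overlapped the next except CARM1 and NCOA2. Groups did not overlap for 4 of the 9, which were NRIP1 and NCOA1 upwards and NCOA2 and CREBBP downwards. Across all genes tested the groups did not overlap for 39.1%, 19.1% upwards and 20.1% downwards.

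Abemaciclib replicates 1 and 3 differed in several of these genes. Relative to the DMSO mean, the median of the 9 was −0.17 on the log2 scale in abemaciclib replicate 1, 0.04 in replicate 2 and 0.26 in replicate 3, whereas the median over all genes was between 0.00 and 0.01 in each of these libraries. EP300, NCOA3, NCOR1 and MED1 were lowest in replicate 1 and highest in replicate 3 of the abemaciclib group, and NRIP1 and CARM1 were highest in replicate 1. The median fold change of the 9 was accordingly 0.18 without abemaciclib replicate 1 and −0.11 without abemaciclib replicate 3. Abemaciclib replicate 3 stood apart over genes above a minimum count in the pair. Its chi-square per degree of freedom was 6.90 and 7.29 against replicates 1 and 2, which differed from each other by 3.48. Its 20 most abundant genes took 21.4% of its counts, against 18.9% to 20.2% in the other libraries. Without it 1412 genes were called higher and 1529 lower, in place of 1354 and 1442. Replicate 1 had the fewest detected genes, 15090 against 15356 to 15720 in the others. The part of these features in the values was not tested.

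ESR1, which encodes the ER itself, had 214.9, 225.5 and 191.4 CPM with DMSO and 384.5, 394.7 and 340.2 CPM with abemaciclib, a log2 fold change of 0.83 (edgeR, adjusted P = 2.92e-07). ESR2, the second oestrogen receptor, had at most 1 count in a library. The pioneer factor FOXA1 (log2 fold change 0.07, adjusted P = 0.64) and the luminal factor GATA3 (0.16, adjusted P = 0.213 in the same edgeR fit) did not pass the threshold. Without abemaciclib replicate 3, GATA3 was called, at 0.25 (edgeR, adjusted P = 0.00536). Counted against ESR1 in the same library, 7 of the 9 coregulators were lower in every abemaciclib library than in every DMSO library, as were 71.2% of the 10862 other genes tested, so the count is near that of genes at large. CREBBP went from 0.762 ± 0.098 to 0.369 ± 0.031 counts for each ESR1 count (SD, n = 3 in each group), and MED1 from 0.578 ± 0.075 to 0.348 ± 0.070. For NRIP1 the same ratio was 0.380 ± 0.020 and 0.333 ± 0.056 and for NCOA1 0.107 ± 0.008 and 0.086 ± 0.016, and in each the groups overlapped. These ratios carry the rise of ESR1 and add no test of the coregulators.

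The partners of the 9 were read from lists of other ER coregulators and of the complexes they belong to. Of 19 other corepressors, 16 could be tested. With the drug 2 of them rose and 2 fell, with a median log2 fold change of −0.18. The genes that fell were TBL1X and TBL1XR1, which encode exchange factors of the NCOR1 complex. TBL1X had 154.0, 167.2 and 186.6 CPM with DMSO and 101.0, 96.7 and 89.7 CPM with abemaciclib, or −0.82 on the log2 scale (edgeR, adjusted P = 2.11e-06). TBL1XR1 went from 157.2 ± 11.6 to 100.7 ± 10.7 CPM (SD, n = 3 libraries each), or −0.64 on the log2 scale (edgeR, adjusted P = 9.83e-05), and in both genes the groups did not overlap. These calls held under all 12 alternatives. For HDAC3, the deacetylase of that complex, the log2 fold change was 0.45 and did not pass the threshold (edgeR, adjusted P = 0.0576), while GPS2 had at most 3 counts in a library and was not tested.

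Of the proteins that NRIP1 recruits, CTBP1 had a log2 fold change of −0.06, CTBP2 of −0.20, HDAC1 of −0.19 and HDAC2 of −0.32, with adjusted P values of 0.727, 0.203, 0.275 and 0.0669 in the same edgeR fit. The 3′ end of CTBP2 overlaps ZRANB1 on the opposite strand. The corepressors that rose were TLE3, by 0.48 (adjusted P = 0.00703), and MTA1, a subunit of the nucleosome remodelling and deacetylase complex, by 0.27 (adjusted P = 0.0498). Leaving out DMSO replicate 2 ended the call of TLE3 (0.36), and that of MTA1 was lost under 8 of the 12 alternatives. The 3′ end of MTA1 overlaps exons of a lncRNA on the opposite strand, which had 12 counts over all libraries. NR0B1 and NR0B2, which are receptor-like corepressors, had 0 counts throughout.

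Of 23 other coactivators, 20 were tested, with 1 higher, 6 lower and a median log2 fold change of −0.12. These are 5% higher and 30% lower, beside 12.5% and 13.3% over all genes tested. PPARGC1A had 0 counts, CITED1 at most 3 and CALCOCO1 at most 10, and they were not tested. KAT5, a histone H4 acetyltransferase, fell from 129.6 ± 11.1 to 79.0 ± 16.1 CPM (SD, n = 3 libraries each), or −0.71 on the log2 scale (edgeR, adjusted P = 0.000176), though its 3′ end overlaps exons of RNASEH2C on the opposite strand. PRMT1, the other arginine methyltransferase that works with the steroid receptor coactivators, was lower by a log2 fold change of −0.38 (edgeR, adjusted P = 0.0229), and its groups overlapped. The 3′ end of PRMT1 overlaps exons of a lncRNA on the opposite strand, which had 0 counts in all libraries. The helicase DDX17 and the ubiquitin ligase UBE3A, also an ER coactivator, fell by 0.38 and 0.39, and the 3′ end of DDX17 overlaps KDELR3 on the opposite strand. NCOA7 fell by 0.92 (adjusted P = 0.0123), but DMSO replicate 3, at 37.0 CPM, was far above the other DMSO libraries at 17.7 and 18.7 CPM, and without it the log2 fold change was −0.49 and the call was lost. PNRC1 fell by 0.51 and PNRC2 rose by 0.71 with overlapping groups, and these calls were lost under 5 and 7 of the 12 alternatives. Without DMSO replicate 3, 1 coactivator of this list was lower in place of 6, and without abemaciclib replicate 1 or abemaciclib replicate 2 there were 3.

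MED1 belongs to Mediator, and of 32 other subunits and kinase-module genes 30 were tested. None was higher (0 with edgeR and 0 with DESeq2, 2 at an unadjusted P under 0.05) and 3 were lower, with a median log2 fold change of 0.04. MED30 was lower, at −1.11 (edgeR, adjusted P = 0.0478), from a level of 8.20 CPM with DMSO. CDK19, a kinase of the module that docks on Mediator, had −0.56 (adjusted P = 0.0456) and MED27 −0.54 (adjusted P = 0.0125). The call of MED30 was lost under 9 of the 12 alternatives, that of CDK19 under 8 and that of MED27 under 2. Among further subunits, the log2 fold change of MED24 was 0.27 (adjusted P = 0.0712) and that of MED14, the central scaffold, 0.32 (adjusted P = 0.372). MED4, MED10, MED21 and MED31 had 0.02, 0.04, 0.20 and 0.07, and MED7 and MED9 had −0.66 and −0.21. None of these subunits passed the threshold in the same edgeR fit.

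Enhancer-modifying and remodelling complexes that work beside EP300 and CREBBP were read in the same way. In the complex of the histone H3 lysine methyltransferases KMT2C and KMT2D, 9 of 9 genes were tested, 1 was higher and 1 lower, with a median of −0.16. KMT2D had 19.4, 19.6 and 19.4 CPM with DMSO and 28.7, 33.6 and 28.6 CPM with abemaciclib, a rise of 0.64 on the log2 scale (edgeR, adjusted P = 0.0172). Leaving out DMSO replicate 2 (0.64) or abemaciclib replicate 2 (0.56) ended this call. KMT2C had a log2 fold change of 0.09, and the called fall of ASH2L, −0.43 (adjusted P = 0.0487), was lost under 9 of the 12 alternatives. In SWI/SNF, a nucleosome remodeller, 14 of 14 genes were tested. There, 0 were higher (0 with DESeq2 and 0 at an unadjusted P under 0.05) and 2 lower, with a median of −0.07. PBRM1 fell from 75.8 to 51.9 CPM (log2 fold change −0.55, adjusted P = 0.00504) and SMARCB1 from 73.6 to 50.7 CPM (−0.54, adjusted P = 0.0135), a call that was lost without DMSO replicate 3 or abemaciclib replicate 2. The catalytic subunit SMARCA4 (0.03) and ARID1A (0.00) did not pass the threshold. The 3′ ends of KMT2D, ASH2L and SMARCB1 overlap exons of DDN-AS1, STAR and DERL3 on the opposite strand. Those had 6, 2 and 27 counts over all libraries. No list was tested as a set, and the share of genes called was 11.1% in the 9 coregulators, 35% in other coactivators, 25% in other corepressors, 10.0% in Mediator, 22.2% in the KMT2C and KMT2D complex and 14.3% in SWI/SNF, beside 25.7% of all genes tested.

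The genes whose pattern over the 6 libraries was most like that of NRIP1 were NDST1, SH3BGRL3 and SCNN1A. Likeness was the Euclidean distance between log2 CPM profiles, each taken relative to its DMSO mean, over the 6136 genes with a mean of at least 20 CPM. The distances were 0.17, 0.17 and 0.19. For NCOA1 the nearest were RRP36, SLC2A1 and ITGB1, at 0.12, 0.14 and 0.16. The log2 fold changes of these genes were 0.53 for RRP36, 0.53 for SLC2A1 and 0.49 for ITGB1, and each passed the threshold where NCOA1 did not. They were picked for a profile like that of NCOA1, so their changes and calls add no test of NCOA1. RRP36, at 26.2 CPM with DMSO, was close to the 22.6 CPM of NCOA1, with standard errors of 0.18 and 0.20, and it passed at an adjusted P of 0.0356 (edgeR).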

How the data were processed

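Per the labels and the study's methods, RNA of ZR-75-1 cells was made into 6 3′ mRNA libraries. After trimming, the authors used STAR 2.7.5b for alignment to hg38 and counted reads per gene with featureCounts 2.0.1. The deposited values are raw counts for 60656 genes, with no normalization. The strand setting is not given in the sources used here. Symbols and coordinates came from GENCODE 44 on the same assembly, and 255 identifiers had no symbol.

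Counts were filtered (filterByExpr, 10863 genes left), scaled by TMM and tested in R 4.3.3 with edgeR 4.0.16 (glmQLFit, glmQLFTest, no covariate). The standard error was the log2 fold change divided by the square root of F. The test was checked on simulated counts. The study's own tool, DESeq2, was run as an alternative (1.42.0), beside other scalings, filters, a replicate block and each library left out in turn. Of these, 12 settings gave each gene a value. The study describes its cell line RNA-seq replicates as independent cultures, and the labels number them only.

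The 9 coregulators and all lists were chosen with earlier results of these data known. Named genes were the 9, ESR1, ESR2, FOXA1, GATA3, MKI67, and from each list up to 3 called genes in each direction with the largest change and at least 5 CPM. Any further gene in the text was picked with its values in view. Promoter windows are from RefSeq (GRCh38.p14), where 8 of the 9 symbols matched.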

Additional observations from a re-analysis of the deposited data

How the results depend on the processing

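Of 380 values under an alternative for the coregulators, the lists, the ratios and the counts over all genes, 323 held (same direction and call, or a shift within 1 SD or, for counts, 1.5 times), 50 moved further and 7 reversed. All 7 were coregulators that had no call in either fit: NCOA3 at −0.077, −0.00076 and −0.11 without DMSO replicate 1, abemaciclib replicate 2 and abemaciclib replicate 3, MED1 at −0.00033 and EP300 at −0.16 without abemaciclib replicate 3, and CARM1 at 0.045 without DMSO replicate 3 and 0.026 without abemaciclib replicate 3. At the other end, without abemaciclib replicate 1, NCOA3 was at 0.26, MED1 at 0.18, EP300 at 0.27 and CARM1 at −0.15. NRIP1 was the called coregulator under all 12 alternatives. For the ratios, the replicate block equals the main value by arithmetic, so those values were bound to hold. For the genes named from the lists and the receptor genes, 55 of 216 values changed, 54 of them losing a call and 1, GATA3 without abemaciclib replicate 3, gaining one.

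Counts in the lists rest on few genes. The 1 coactivator higher became 0 with DESeq2, with total counts only, with at least 10 counts in every library and with the replicate block, and was 0 to 1 with a library left out, while 1 to 6 were lower. The 2 corepressors higher became 1 with total counts only, with no filter, with at least 10 counts and with the block, and were 0 to 2 with a library left out, with 2 to 5 lower. The 3 Mediator genes lower became 1 with DESeq2, with no filter and with the block, and 0 to 2 with a library left out, with 0 to 1 higher. The 1 KMT2C and KMT2D complex gene lower became 0 with DESeq2, with its size factors, with no filter and with the block, and was 0 to 1 with a library left out, as was the 1 higher. The 2 SWI/SNF genes lower were 1 to 2. The causes were not tested.

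With a library left out, the median log2 fold change was −0.11 to 0.18 for the 9 coregulators, −0.18 to −0.095 for coactivators, −0.20 to −0.12 for corepressors, −0.025 to 0.073 for Mediator, −0.19 to −0.11 for the KMT2C and KMT2D complex and −0.13 to −0.062 for SWI/SNF. The labels do not say whether same-numbered libraries were handled together. The correlations of their deviations from the group means were −0.0434, 0.00705 and −0.0893, which cannot decide it. The block called 1 coregulator higher and 0 lower, as without it. NCOA1 had the lowest mean level of the 9 in each group, with 65 to 130 counts in a library.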
